A study of Homo sapiens with 18 samples.

Results

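DACT1, DACT2 and DACT3 make up the DACT (Dapper/Frodo) family of intracellular adaptor proteins, and their transcripts were followed here through a propionate time course. They were taken as the rows of the count tables whose Ensembl identifier carries 1 of these 3 symbols in the GENCODE annotation of GRCh38, and are 3 of the 61541 genes listed in each table. The samples were A549 cells, an established human non-small cell lung carcinoma line of wild-type genotype, grown in high-glucose DMEM with fetal bovine serum. Sodium propionate (SP), the salt of a short-chain fatty acid that gut bacteria release when they ferment fibre, was given at 5 mM for 3 h (SP_3H), 24 h (SP_24H), 3 days (SP_3D) or 12 days (SP_12D), and untreated cells were collected at 24 h (Control_24H) and at 3 days (Control_3D). Bulk RNA-seq was made from 3 libraries in each of the 6 groups, 18 in all, with 14187401 to 43765330 reads assigned to genes per library. The short treatments were counted in a table with Control_24H and the long ones in a table with Control_3D, so that SP_3H was compared with a control taken at 24 h and SP_12D with a control taken at 3 days, and both treatments of a table share their control libraries. The labels number the replicates without saying whether they came from separate cultures, so the spread between them may be technical.

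DACT proteins bind Dishevelled, the cytoplasmic relay that carries the signal from Frizzled receptors, and were first found as partners through which Wnt signalling is turned down. Depending on the member and the tissue they have also been tied to planar cell polarity through Vangl proteins and to the turnover of TGF-β receptors. DACT1, DACT2 and DACT3 have each been described as silenced in some carcinomas, DACT3 by histone marks in colorectal cancer.

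The 3 members were read at different levels and in different groups. DACT3 was almost unread in untreated cells and was read at every SP time, DACT1 was low throughout and higher in every library at 3 h and at 12 days, and the DACT2 libraries of SP and control overlapped at every time. The family was chosen by the fitted fold changes of these same libraries against control, in which DACT3 stood out, so its values against control and between times are given as a description and carry no test. Fewer cells with a transcript and less transcript per cell cannot be told apart in bulk RNA.

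The 250 bases before the main start of each gene are shown to set the 3 promoters side by side. They are also shown because a long non-coding gene on the other strand has an exon that begins near the DACT3 start. DACT1 begins at 58633967 in the annotation but has its main start at 58637962, so the DACT1 stretch lies inside the annotated gene. The sequences are from RefSeq (GRCh38.p14), all 3 members were matched by symbol, and each is written 5′ to 3′ on the strand of its gene with every CpG site in capitals.
DACT3, chr19:46661183-46661432, minus strand: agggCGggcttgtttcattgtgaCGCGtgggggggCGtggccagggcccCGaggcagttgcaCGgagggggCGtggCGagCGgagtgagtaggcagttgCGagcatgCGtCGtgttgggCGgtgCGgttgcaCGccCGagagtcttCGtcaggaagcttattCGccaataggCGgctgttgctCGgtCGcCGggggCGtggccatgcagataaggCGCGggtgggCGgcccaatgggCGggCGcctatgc
DACT1, chr14:58637712-58637961, plus strand: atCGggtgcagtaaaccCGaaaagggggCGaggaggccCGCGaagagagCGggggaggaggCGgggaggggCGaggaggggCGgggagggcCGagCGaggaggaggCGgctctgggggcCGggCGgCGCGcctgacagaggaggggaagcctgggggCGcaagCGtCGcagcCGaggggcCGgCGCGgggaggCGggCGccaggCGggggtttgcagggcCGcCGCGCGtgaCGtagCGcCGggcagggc
DACT2, chr6:168319778-168320027, minus strand: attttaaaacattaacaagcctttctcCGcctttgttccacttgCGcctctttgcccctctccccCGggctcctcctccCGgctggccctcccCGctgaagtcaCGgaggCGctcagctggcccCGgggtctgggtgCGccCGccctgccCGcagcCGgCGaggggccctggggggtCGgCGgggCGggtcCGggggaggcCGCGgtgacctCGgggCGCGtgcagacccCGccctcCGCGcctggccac
All 3 stretches were rich in CpG, with 28 sites in DACT3, 33 in DACT1 and 25 in DACT2 against a median of 11 over the 35114 promoters of this length in the table. The stretch of DACT3 had fewer G and C (68.4%) than those of DACT1 (78.4%) and DACT2 (73.2%). The letters CCAAT, read on both strands, occurred 2 times before DACT3 and 0 times before the other two, and 32.0% of all promoters in the table hold them. The letters GGGCGG, read on both strands, occurred 4 times before DACT3, 2 times before DACT1 and 3 times before DACT2, and 42.6% of all promoters hold them. These are matches of letters only, and no binding was measured.

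DACT3 (ENSG00000197380, chr19:46647551-46661182, minus strand, 5466 exonic bases) is the family member described as a repressor of β-catenin signalling through Dishevelled. In the control libraries at 24 h it had 5, 4 and 13 reads, which are 0.265, 0.211 and 0.456 CPM (reads scaled to the depth of the library after TMM correction). After 3 h of SP it had 137, 606 and 271 reads (9.66, 19.7 and 11.04 CPM), and after 24 h 122, 323 and 229 reads (4.94, 7.23 and 7.73 CPM). The lowest treated library at either time lay over 10 times above the highest control library. The fitted log2 fold change against Control_24H was 5.35 ± 0.41 (SE, n = 3 against 3) at 3 h and 4.33 ± 0.41 at 24 h. Summed over libraries, 1014 reads at 3 h stood against 22 in control, a depth-corrected ratio of 43.96 with a 95% counting interval of 28.9 to 70.5, and 674 reads at 24 h gave a ratio of 20.5 (13.4 to 33.0). These exact binomial intervals cover counting error only. Among all 17377 genes tested in this table, 15.6% had 3 SP libraries above all 3 control libraries at 3 h and 24.6% at 24 h, as DACT3 did.

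At 3 days DACT3 was close to absent from untreated cells. Its control libraries had 0, 1 and 2 reads, and the library with 0 reads allows up to 0.143 CPM (3 reads). The SP_3D libraries had 260, 256 and 198 reads (15.9, 15.6 and 11.8 CPM), and the SP_12D libraries 130, 91 and 257 reads (8.22, 4.54 and 11.4 CPM). No treated library came near the control libraries, and replicate 3 of SP_12D lay above the other two of its group. The log2 fold change was 7.84 ± 0.58 at 3 days and 7.01 ± 0.62 at 12 days. Because the control total is 3 reads, the ratios are wide: 258 (88.1 to 1256) at 3 days and 147 (49.9 to 714) at 12 days. Without replicate 1 of Control_3D, the library with 0 reads, the fitted values were 7.20 and 6.36, and without replicate 3 they were 8.73 and 7.89. At 3 days 30.5% of the 17775 genes tested in this table had all SP libraries above all control libraries, and at 12 days 28.7%.

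Ordered by fitted rise over all genes tested, DACT3 stood at rank 5 at 3 h, 70 at 24 h, 8 at 3 days and 16 at 12 days. This placing is part of what brought the gene into view and supports nothing further. It stayed a lowly to middling transcript, since per kilobase of exon it reached 2.46 RPKM at 3 h and 2.64 RPKM at 3 days. These are the 46.2 and 44.98 percentile of the tested genes, from the 3.08 and 0.485 percentile in the controls. DACT3 entered the tested genes mainly through its reads in treated libraries, so its low percentile in the controls partly follows from that.

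**Figure D1:**
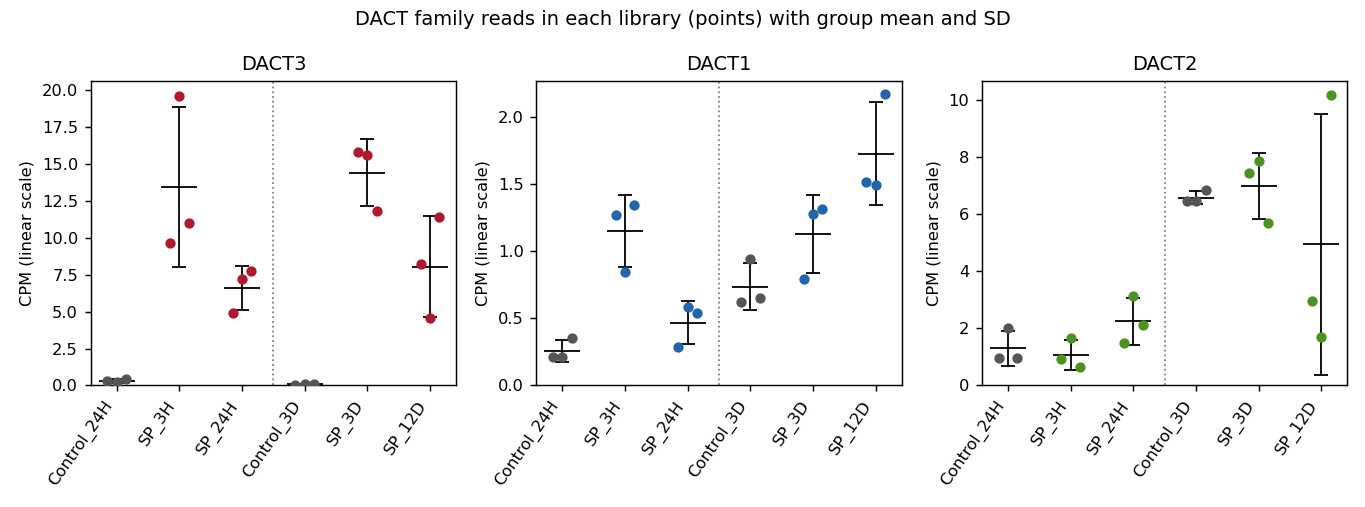
CPM (linear y axes that differ between panels) of DACT3, DACT1 and DACT2 in each of the 18 libraries, by group; points are libraries, black bars the mean and SD of 3, controls are grey and the dotted line separates the 2 count tables. DACT3 lay between 4.54 and 19.7 CPM in all SP libraries and at or under 0.456 CPM in all controls, while DACT2 overlapped its controls at every time.

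Within the treated cells, DACT3 was read more at the earlier time of each table. Mean DACT3 levels were 13.5 ± 5.41 CPM (SD, n = 3) at 3 h and 6.63 ± 1.49 CPM at 24 h, and all 3 libraries at 24 h were below all 3 at 3 h. The fitted log2 difference was -1.02 ± 0.29, and 21.6% of all genes tested had every 24 h library below every 3 h library. In the long treatments the means were 14.4 ± 2.24 CPM at 3 days and 8.05 ± 3.43 CPM at 12 days, with a log2 difference of -0.84 ± 0.27 and again no overlap, the highest SP_12D library at 11.4 CPM against the lowest SP_3D library at 11.8 CPM. The gap between those 2 libraries is small, and 12.9% of all genes had every 12-day library below every 3-day library. By the test used for other genes below, 20.1% of all genes changed between 3 h and 24 h and 8.10% between 3 days and 12 days. The short and long treatments come from separately made tables and were not tested against each other.

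DACT1 (ENSG00000165617, chr14:58633967-58648321, plus strand, 4584 exonic bases) encodes the founding Dishevelled-binding member. It was read at the edge of detection, with 4, 4 and 10 reads in Control_24H. It had 18, 26 and 33 reads in SP_3H (1.27, 0.843 and 1.34 CPM) and 7, 26 and 16 reads in SP_24H (0.283, 0.582 and 0.540 CPM). The 3 h libraries all lay above the controls, whose highest was 0.351 CPM, while 1 library of SP_24H lay inside the control range. The log2 fold change was 2.06 ± 0.39 at 3 h, from 77 reads against 18 (ratio 4.08, counting interval 2.42 to 7.25), and 0.84 ± 0.41 at 24 h, from 49 reads against 18. At 3 h 15.6% of all genes tested had no overlap of this kind. DACT1 entered the tested genes of this table mainly through its reads in treated libraries.

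In the long treatments DACT1 had 13, 15 and 11 reads in Control_3D, 13, 21 and 22 in SP_3D, and 24, 30 and 49 in SP_12D. The SP_3D libraries (0.793, 1.28 and 1.32 CPM) overlapped the controls (0.622, 0.940 and 0.650 CPM), and the SP_12D libraries (1.517, 1.497 and 2.17 CPM) did not. The log2 fold change was 0.63 ± 0.33 at 3 days and 1.25 ± 0.31 at 12 days, the latter from 103 reads against 39 (ratio 2.43, 1.67 to 3.61). All SP_12D libraries above all controls were found for 28.7% of all genes tested. Between times, DACT1 had a log2 difference of -1.23 ± 0.33 at 24 h against 3 h, the sign of DACT3, and of 0.62 ± 0.29 at 12 days against 3 days, the opposite sign. All 3 libraries at 12 days were above all 3 at 3 days, as for 13.9% of all genes. DACT1 shares 378 exonic bases with LINC01500 on the same strand, so reads in that stretch could have been left out or split, and its level is uncertain by that much. It stood at rank 189 of all fitted rises at 3 h and at rank 2492 at 24 h, 3281 at 3 days and 1579 at 12 days.

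DACT2 (ENSG00000164488, chr6:168292830-168319777, minus strand, 4246 exonic bases), the member linked to the turnover of Nodal and TGF-β receptors, was the best read of the family in untreated cells. It had 18, 38 and 27 reads in Control_24H, 13, 51 and 16 in SP_3H, and 37, 140 and 63 in SP_24H. Replicate 2 was the highest library in all 3 groups at 2.01, 1.65 and 3.13 CPM. The log2 fold change was -0.21 ± 0.46 at 3 h and 0.83 ± 0.42 at 24 h, and the groups overlapped at both times. Without replicate 2 of Control_24H these values became 0.22 and 1.26, and without replicate 2 of the treated group -0.75 and 0.50, so that the sign at 3 h rests on single libraries.

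In Control_3D DACT2 had 135, 103 and 116 reads (6.46, 6.45 and 6.86 CPM), a tight group. The SP_3D libraries had 122, 129 and 95 reads (7.44, 7.86 and 5.68 CPM), on both sides of it, with a log2 fold change of 0.09 ± 0.55. The SP_12D libraries had 47, 34 and 230 reads (2.97, 1.70 and 10.2 CPM): 2 libraries lay below every control and replicate 3 above every control. The log2 fold change of -0.37 ± 0.56 averages these, and without replicate 3 it was -1.55. In that same library DACT1 and DACT3 were also at the highest value of their group, and over all tested genes it lay 0.474 (root mean square, log2 CPM) from the mean of the other two, against 0.307 and 0.356 for those. The part of that library in the DACT2 spread was not tested. DACT2 in untreated cells averaged 1.30 CPM at 24 h and 6.59 CPM at 3 days, values set across the 2 tables and therefore not compared.

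**Figure D2:**
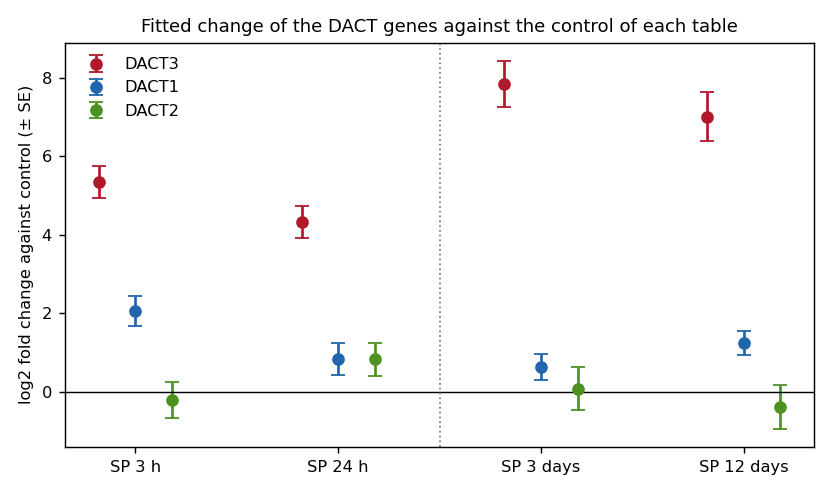
Fitted log2 fold change against the control of the same table (y axis, bars are SE, n = 3 against 3) for DACT3, DACT1 and DACT2 at 4 SP times (x axis); the dotted line separates the 2 tables. DACT3 lay at 4.33 to 7.84, DACT1 at 0.63 to 2.06 and DACT2 at -0.37 to 0.83.

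Per kilobase of exon, the leading member of the family by group mean changed with treatment. In Control_24H, DACT2 held 71.1% ± 13.3 (SD, n = 3) of the summed RPKM of the family, DACT3 14.6% ± 7.44 and DACT1 14.2% ± 5.86, and DACT1 and DACT3 could not be ordered. In SP_3H, DACT3 held 82.1% ± 4.03, and DACT1 (9.52% ± 4.43) and DACT2 (8.37% ± 1.86) did not differ beyond their spread. In SP_24H the shares were 66.2% ± 4.99 for DACT3, 28.4% ± 4.76 for DACT2 and 5.43% ± 0.641 for DACT1. In Control_3D, DACT2 held 90.1% ± 2.24 and DACT3 0.625% ± 0.609. In SP_3D, DACT3 held 58.2% ± 1.68 and DACT2 36.2% ± 0.927, and in SP_12D 51.6% ± 8.79 and 33.9% ± 12.6. In replicate 3 of SP_12D DACT2 was still the leading member, with 48.4% (2.40 RPKM) against 42.0% (2.08 RPKM) for DACT3. The summed family level was 0.420 ± 0.124 RPKM in Control_24H, 2.97 ± 1.05 in SP_3H and 1.85 ± 0.464 in SP_24H. It was 1.72 ± 0.0621 RPKM in Control_3D, 4.53 ± 0.647 in SP_3D and 3.02 ± 1.75 in SP_12D.

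**Figure D3:**
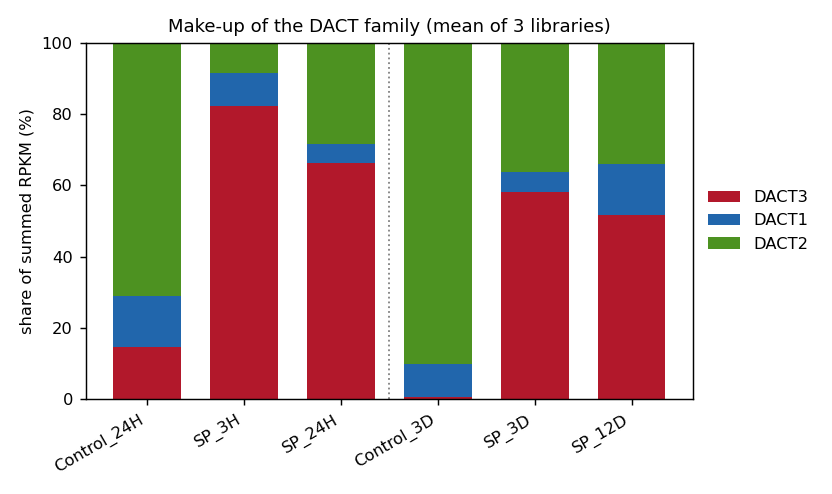
Share of the summed RPKM of the DACT family held by DACT3, DACT1 and DACT2 (y axis, percent, mean of 3 libraries) in the 6 groups (x axis); the dotted line separates the 2 tables. DACT2 made up 71.1% and 90.1% in the controls and DACT3 51.6% to 82.1% in the SP groups.

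The position of DACT3 allowed its rise to be set beside its neighbours, measured genes that its selection did not use. DACT3-AS1, a long non-coding gene on the opposite strand, has an exon that begins 295 bases beyond the start of DACT3. The printed DACT3 stretch lies between the DACT3 start and that exon, and whether a transcript of DACT3-AS1 starts there was not examined. An earlier exon of DACT3-AS1 begins at 46660364 inside DACT3, and it shares no exonic bases with DACT3. DACT3-AS1 had 15, 8 and 10 reads in Control_24H, 9, 15 and 11 in SP_3H, and 11, 27 and 18 in SP_24H. It had 14, 13 and 21 reads in Control_3D, 14, 21 and 34 in SP_3D, and 16, 12 and 37 in SP_12D. Its groups overlapped at every time, and it did not pass the test (edgeR quasi-likelihood, adjusted p under 0.05 over all genes tested) in any comparison, with log2 fold changes of 0.00 ± 0.37 at 3 h, 0.14 ± 0.35 at 24 h, 0.63 ± 0.41 at 3 days and 0.29 ± 0.41 at 12 days. The 3 h counting interval of its ratio, 0.611 to 1.68, lies far under that of DACT3. Reads of this gene are few, and a change under that bound would not be seen at this depth.

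The neighbours were the nearest tested genes on each side of DACT3, up to 255 kb away, tested as DACT3-AS1 was. PNMA8C, 219 kb from DACT3, had fitted changes of 4.68 ± 0.71 at 3 h and 4.15 ± 0.73 at 24 h, which did not differ from the 5.35 ± 0.41 and 4.33 ± 0.41 of DACT3 beyond their SE. Without replicate 2 of Control_24H, PNMA8C was at 6.79 and 6.25. It had 35 reads at each of those times against 1 read in control, which gives ratios of 33.4 (5.61 to 1356) and 23.5 (3.94 to 952). At 3 days PNMA8C was read too little to be tested, with 23 reads against 4 (ratio 6.24, 2.13 to 24.8), and at 12 days it had 4 against 4. CCDC8, 234 kb away, passed at 24 h (2.67 ± 0.62). In the long treatments CCDC8 was read too little to be tested. It had 18 reads against 4 at 3 days (ratio 4.89, 1.61 to 19.9) and 11 against 4 at 12 days (2.53, 0.750 to 10.9).

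Nearer to DACT3 the changes were smaller. PRKD2, a protein kinase D gene 13.1 kb away that shares 298 exonic bases with DACT3-AS1, rose at 3 days (0.70 ± 0.08) and 12 days (0.73 ± 0.08). It passed at 3 h too (1.03 ± 0.25), but not without replicate 1 (0.81) or 2 (1.11) of Control_24H, replicate 1 (1.00) or 2 (0.86) of SP_3H, or replicate 3 of SP_24H (1.03). At 24 h PRKD2 (0.74 ± 0.25) did not pass, and it passed with same-numbered libraries paired (0.74, edgeR adjusted p = 0.0463). CALM3, a calmodulin gene 36.8 kb on the other side, rose at 3 days (0.47 ± 0.10) and 12 days (0.37 ± 0.10), and its call at 24 h (0.40 ± 0.10) was lost with 4 of 9 libraries left out in turn (0.32 to 0.41). STRN4 fell by 0.39 and 0.50 on the log2 scale at 3 and 12 days, and SLC1A5, a glutamine transporter, fell by 0.83 and 1.15 at 3 and 12 days. SLC1A5 had passed upwards at 24 h (0.45 ± 0.14), a call lost with same-numbered libraries paired (0.46, edgeR adjusted p = 0.0612) and with 6 of 9 libraries left out (0.32 to 0.50). PPP5C fell by 0.31 and 0.49 at 3 and 12 days. PNMA8A passed at 24 h, 3 days and 12 days (0.31, 0.22 and 0.23), with its calls lost in 7, 5 and 6 of 9 such omissions. PPP5D1P and ENSG00000269151 did not pass at 3 days (-0.54 and 0.06) or 12 days (-0.70 and -0.14). ENSG00000269151, among the nearest tested genes only in the long table, passed upwards at 3 h (1.49) and 24 h (1.21), calls lost with 4 and 6 of 9 libraries left out (1.19 to 1.55 and 0.89 to 1.31) and with same-numbered libraries paired. At 3 and 12 days no tested neighbour of DACT3 given here had a fitted change above 0.73, beside 7.84 and 7.01 for DACT3. PNMA8C and CCDC8 were not tested at those times.

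**Figure D4:**
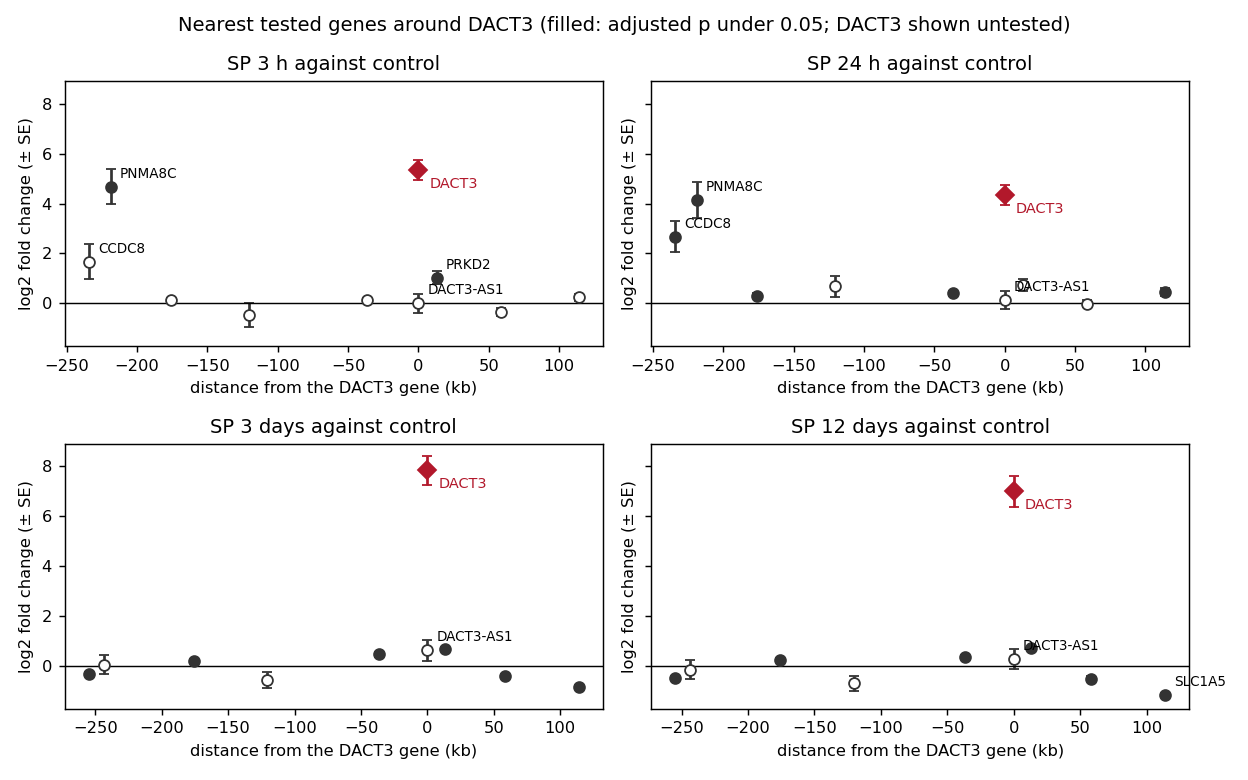
Log2 fold change against control (y axis, bars are SE) of the nearest tested genes by their distance in kb from the DACT3 gene (x axis, 0 for overlap), in 4 panels for the SP times; filled points passed at adjusted p under 0.05, open points did not, and the red diamond is DACT3, shown without a test. PNMA8C reached 4.68 at 3 h, and every plotted neighbour lay between -1.15 and 0.73 at 3 and 12 days. PNMA8C and CCDC8 were not tested at 3 and 12 days and are not plotted there.

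Over the neighbours of all 3 members, 30 genes, 3 were higher and 3 lower at 3 h, where 11.5% of all genes tested passed (7.39% higher and 4.11% lower). At 24 h 8 were higher and 4 lower, where 28.8% of all genes passed (16.8% and 12.0%). At 3 days 7 rose and 10 fell, where 48.6% of all genes passed (25.2% and 23.3%). At 12 days 7 rose and 7 fell, where 49.8% of all genes passed (26.4% and 23.4%). The 3 h total of 6 became 2 without replicate 1 of Control_24H, replicate 1 or 2 of SP_3H or replicate 3 of SP_24H, and 3 without replicate 2 of Control_24H or replicate 1 of SP_24H. The 24 h total of 12 became 6 and 5 without replicates 1 and 2 of Control_24H and 4 without replicate 2 or 3 of SP_24H. Next to DACT1 on the right lies DAAM1, 540 kb away, a formin that binds Dishevelled in planar cell polarity signalling. DAAM1 rose at 3 days (1.16 ± 0.12) and 12 days (1.38 ± 0.12), and its 3 h call (0.99 ± 0.25) was lost with 7 of 9 libraries left out (0.79 to 1.09). Inside DACT2, on the same strand and sharing no exonic bases with it, lies the long non-coding gene ENSG00000224417. It fell by 2.701 ± 0.37 on the log2 scale at 3 days and by 2.11 ± 0.34 at 12 days, from 2.66 ± 0.295 CPM in Control_3D to 0.406 ± 0.255 and 0.594 ± 0.193, while the surrounding DACT2 overlapped its controls. At 24 h its value of -1.02 ± 0.30 passed, but not without replicate 2 of Control_24H (-0.74) or replicate 2 (-0.98) or 3 (-0.84) of SP_24H. AFDN, a junction scaffold gene 321 kb from DACT2, rose at 3 days (0.44 ± 0.08) and 12 days (0.37 ± 0.08). KIF25-AS1 rose at 24 h (1.91 ± 0.36).

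The genes whose course over the 18 libraries was most like that of each member were found among 16654 genes tested in both tables, by the root mean square difference in log2 CPM after subtraction of the control mean of the same table. For DACT3 these were NGFR, the p75 neurotrophin receptor (difference 1.01), CHST1, a keratan sulfotransferase (1.15), and CHRM4, a muscarinic receptor (1.20), where DACT3 itself lay 4.41 from its controls. Their course from 3 h to 24 h went the other way from that of DACT3. The fitted changes at those times were 4.47 and 6.53 for NGFR, 3.28 and 3.64 for CHST1, and 3.99 and 5.11 for CHRM4. For DACT3 they were 5.35 and 4.33. NGFR had 735 reads in SP_3D against 6 in control, a ratio of 133 (60.8 to 364). For DACT1 the nearest were STC1, stanniocalcin (0.368), ATF3, a stress-responsive transcription factor (0.376), and LASP1NB (0.377), where DACT1 itself lay 1.00 from its controls. For DACT2 they were FAM166C (0.331), VTCN1 (0.340) and ITGB2 (0.356), with DACT2 itself at 0.723. The differences of DACT2 and its neighbours in course include the replicate 3 of SP_12D described above. All of these differences come from the same 18 libraries, and the likeness is a description.

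The genes of proteins that DACT family members bind had fitted changes under those of DACT3. DACT3 was chosen with its fitted rise in view, so the contrast in size supports nothing further. Of 13 partner genes 12 were tested, and 0 passed at 3 h, 2 at 24 h, 4 at 3 days and 5 at 12 days, all of them higher. These are 16.7%, 33.3% and 41.7% of the tested partners at the last 3 times, beside 28.8%, 48.6% and 49.8% of all genes tested, and beside 11.5% of all genes at 3 h. At the stricter threshold of the study (adjusted p under 0.0001 and 2-fold) 0 of all genes tested passed at 3 h, 0.685% at 24 h, 8.44% at 3 days and 9.11% at 12 days. At 3 h 2 partners had an unadjusted p under 0.05 by edgeR and 1 passed by DESeq2. The median log2 fold change of the partners was 0.16, 0.27, 0.16 and 0.11 at the 4 times, beside medians over all genes of 0.00, -0.01, -0.02 and 0.00. DVL1, a Dishevelled gene, rose at 12 days (0.54 ± 0.08) and 3 days (0.28 ± 0.08), but the 3-day value turned to -0.25 with GC content and length removed and the 12-day call was lost (0.13). DVL2 (-0.02 and -0.13 at 3 and 12 days) and DVL3 (0.19 and 0.14) did not pass. With GC content and length removed, DVL2 passed as lower at 24 h (-0.43), 3 days (-0.25) and 12 days (-0.26), with edgeR adjusted p = 0.0037, 0.0126 and 0.0118. DVL3 at 3 days passed with same-numbered libraries paired (0.19, edgeR adjusted p = 0.0467), with DESeq2 size factors (0.20, adjusted p = 0.0456), when only the compared groups were fitted (0.19, adjusted p = 0.0287) and without replicate 3 of Control_3D (0.22) or of SP_12D (0.18). VANGL2 rose at 24 h (1.06 ± 0.25). It passed at 3 days (0.39 ± 0.12), but not without replicate 2 of Control_3D (0.31) or of SP_3D (0.34), and at 12 days (0.37 ± 0.12), but not without replicate 2 of Control_3D (0.28) or replicate 3 of SP_12D (0.23). VANGL1 rose at 12 days (0.38 ± 0.08). PRKACA, the protein kinase A catalytic subunit, rose at 24 h (1.13 ± 0.23), 3 days (0.79 ± 0.08) and 12 days (0.51 ± 0.08), and CSNK1E, a casein kinase gene named after its values were seen, at 3 days (0.22 ± 0.08) and 12 days (0.28 ± 0.08). The count of partners was 1 at 3 h and 5 at 24 h without replicate 3 of Control_24H, and 2 at 3 days without replicate 2 of Control_3D or of SP_3D.

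Set among the other antagonists of the pathway, DACT3 had the largest fitted rise at each of the 4 times by value. The family was chosen by these fold changes, in which DACT3 stood out, so this placing supports nothing further. Of 40 other antagonist genes 30 were tested in each table, and 4 were higher and 2 lower at 3 h, 12 and 0 at 24 h, 16 and 3 at 3 days, and 17 and 5 at 12 days. Of all genes tested, 7.39% were higher and 4.11% lower at 3 h, 16.8% and 12.0% at 24 h, 25.2% and 23.3% at 3 days, and 26.4% and 23.4% at 12 days. KREMEN2, a receptor for Dickkopf proteins, rose at all times, by 1.39 ± 0.15, 2.61 ± 0.15, 3.62 ± 0.20 and 3.38 ± 0.20. NOTUM is a secreted enzyme that removes the lipid of Wnt proteins. It rose at 24 h (3.11 ± 0.32), 3 days (3.73 ± 0.31) and 12 days (2.83 ± 0.32). NKD2, another Dishevelled-binding inhibitor, rose at 3 h (1.58 ± 0.30). At 24 h NKD2 lay at 2.01 to 2.705 with each library left out in turn. Its range was 2.18 to 2.24 at 3 days and 1.80 to 2.07 at 12 days. For the antagonists too, a time not printed is not a time without change. DKK1, which blocks the LRP co-receptors, fell by 1.41 ± 0.20 at 3 h, 0.62 ± 0.16 at 3 days and 1.33 ± 0.17 at 12 days, the opposite sign to DACT3 at those times. At 24 h DKK1 passed upwards, the sign of DACT3, a call lost with 4 of 9 libraries left out (0.46 to 0.70). IGFBP4 fell by 1.02 ± 0.10 at 12 days and AXIN1, a scaffold of the β-catenin destruction complex, by 0.34 ± 0.08 at 3 days. SOSTDC1 passed at 12 days with 199 reads against 5 (ratio 36.6, 15.4 to 114), but not without replicate 1 (4.31), 2 (5.71) or 3 (5.15) of Control_3D. Its SP_12D libraries averaged 3.03 ± 4.17 CPM (SD, n = 3), and without replicate 3 of SP_12D the log2 fold change of 4.98 became 2.62. TLE4 passed downwards at 3 h (-0.57 ± 0.15), a call lost with 7 of 9 libraries left out (-0.63 to -0.46). The 3 h total of 6 was 3 without replicate 2 of SP_3H. The medians were 0.24, 0.49, 0.33 and 0.35.

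Ligands and receptors act upstream of the DACT proteins and β-catenin targets downstream. Of 42 ligand and receptor genes 29 were tested in the short treatments and 31 in the long ones, with 6 higher and 3 lower at 3 h, 11 and 0 at 24 h, 22 and 3 at 3 days, and 16 and 5 at 12 days. As a share of the tested ligand and receptor genes, 31.0%, 37.9%, 80.6% and 67.7% passed at the 4 times, where 11.5%, 28.8%, 48.6% and 49.8% of all genes did. PTK7, a co-receptor of the polarity branch, rose at 3 days (2.97 ± 0.16) and 12 days (2.40 ± 0.16), and WNT3A had 69 reads against 3 at 3 days (ratio 24.98, 8.20 to 124). WNT11 (2.12 ± 0.24) and FZD4 (1.27 ± 0.15) rose at 3 h, WNT3 fell by 1.20 ± 0.22 at 3 h and 1.02 ± 0.10 at 3 days, FZD8 fell by 0.89 ± 0.14 and 1.42 ± 0.14 at 3 and 12 days, and WNT5A by 1.03 ± 0.19 at 12 days. A time not printed for a gene is not a time without change. With each library left out in turn, WNT11 lay at 1.97 to 2.25 at 24 h. It lay at 2.13 to 2.33 at 3 days and at 2.01 to 2.15 at 12 days. FZD4 lay at 0.68 to 0.87, 0.54 to 0.73 and 0.60 to 0.79 at those 3 times. PTK7 lay at 2.02 to 2.59 at 24 h, and WNT3 at -1.07 to -0.95 at 12 days. WNT5A stayed between -0.33 and 0.20 before 12 days. Without replicate 2 of SP_3H the 3 h total of 9 was 5. Of 26 genes listed as β-catenin targets, several of which are antagonists too, 23 were tested, with 1 higher and 2 lower at 3 h, 7 and 2 at 24 h, 15 and 2 at 3 days, and 16 and 2 at 12 days. Thus 13.0%, 39.1%, 73.9% and 78.3% of the tested targets passed, beside the same shares of all genes. SP5 had 75 and 113 reads at 3 and 12 days against 5 (ratios 16.3, 6.68 to 51.6, and 20.8, 8.66 to 65.3). At 12 days the SP5 libraries averaged 1.78 ± 1.64 CPM (SD, n = 3), and without replicate 3 of SP_12D the log2 fold change of 4.22 became 3.06. ASCL2 had 54 reads at 24 h and 0 in control, and the counting interval of its ratio began at 9.48. With 3 reads put in place of 0 over the control group, the ratio was 12.06. TNFRSF19 rose at 3 h (1.05 ± 0.20) and MMP7 fell by 0.48 ± 0.07 at 3 days. With each library left out in turn, TNFRSF19 lay at -0.25 to 0.12 at 24 h. It lay at 1.11 to 1.17 at 3 days and at 0.92 to 1.43 at 12 days. The target totals of 3 at 3 h and 9 at 24 h were 8 without replicate 3 of Control_24H and 5 without replicate 3 of SP_24H. The medians of ligands and receptors were 0.21, 0.56, 0.67 and 0.45 and those of targets 0.28, 0.48, 0.63 and 0.79.

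**Figure D5:**
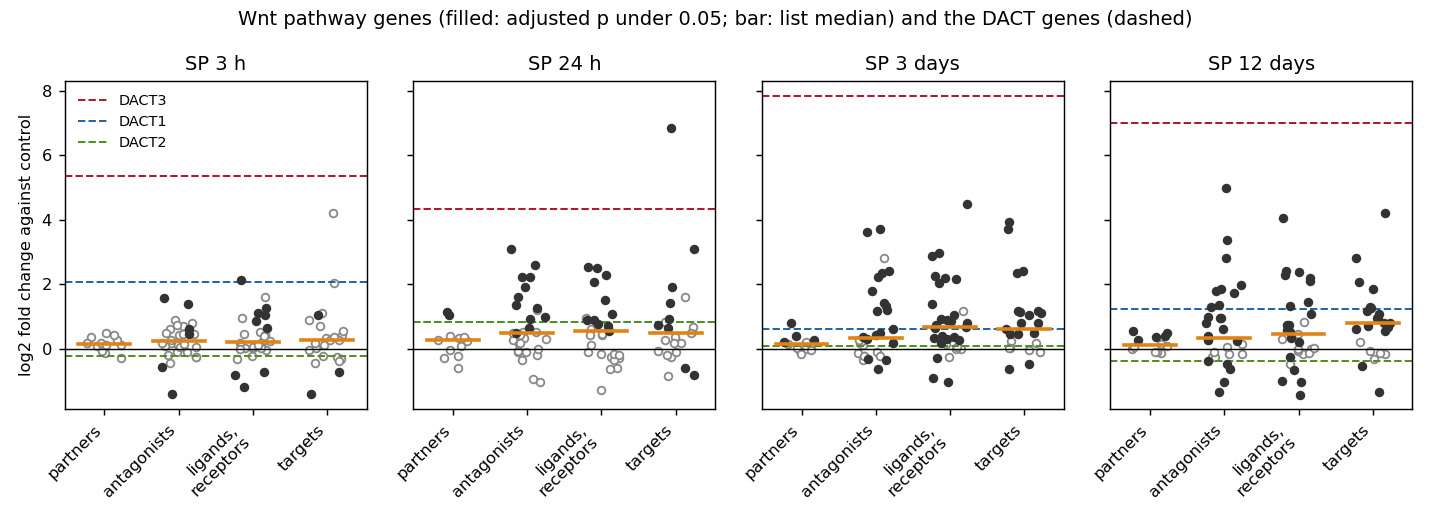
Log2 fold change against control (y axis) of each tested gene of 4 Wnt pathway lists (x axis) in panels for the 4 SP times; filled points passed at adjusted p under 0.05, open points did not, orange bars are list medians and dashed lines the untested values of DACT3, DACT1 and DACT2. The partners stayed between medians of 0.11 and 0.27 while DACT3 lay at 4.33 to 7.84; at 24 h the ASCL2 point, at 0 reads in control, depends on the prior count.

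Markers of the labelled line were read throughout. All 10 A549 markers were read in every group, at 20529 to 27671 summed CPM. Of other cell types, the blood list summed to at most 1.25 CPM with CD3E at 0 in every group, and the endothelial list to at most 2.94 CPM. The neural list of 6 summed to 82.5 to 89.8 CPM in Control_24H, 97.8 to 101 in SP_3H and 92.5 to 102 in SP_24H. It summed to 134 to 141 CPM in Control_3D, 97.4 to 106 in SP_3D and 84.8 to 110 in SP_12D. It thus lay above its controls in the short treatments and below them in the long ones. MBP and RBFOX3 made up most of it (61.1 and 71.6 CPM in Control_3D), and OLIG2 had 0 reads. The fibroblast list of 7 summed to 8.58 to 25.2 CPM in Control_24H, 23.9 to 44.1 in SP_3H and 81.5 to 107 in SP_24H, so that it overlapped its controls at 3 h and was above them at 24 h, while DACT3 was lower at 24 h than at 3 h. It summed to 18.5 to 19.4 CPM in Control_3D, 89.9 to 106 in SP_3D and 67.8 to 91.9 in SP_12D, above the controls at both times as DACT3 was. COL1A1 and THY1 made up much of it (61.9 and 29.6 CPM in SP_3D), whereas COL1A2 had 0 reads in the long table and DCN 9 reads over SP_3D and 0 over Control_3D. LUM rose too in the long treatments, from 49 reads over Control_3D to 186 over SP_3D and 439 over SP_12D. PDGFRB passed upwards at 24 h (55 reads against 3) and was not tested in the long treatments. COL3A1 did not pass at any time. The part of these genes in the DACT3 result was not tested.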

How the data were processed

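RNA was isolated with a miRNeasy kit and made into libraries with a NEBNext Ultra RNA kit. The strand setting of the counting is not given in the sources used here. The authors deposited whole-number counts per Ensembl gene in 2 tables, made per the labels with FastQC, STAR 2.7.9a and featureCounts on GRCh38, with R 4.2.1 and DESeq2 1.36.0 also listed. The counts carry no normalization and 61541 genes are listed in each table. Symbols, exons and neighbours were taken from GENCODE (GRCh38), and promoter sequences from RefSeq (GRCh38.p14).

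For each table the 9 libraries were fitted together by group in edgeR 4.0.16 (R 4.3.3; TMM, filterByExpr with a minimum count of 10, robust quasi-likelihood F test), with Benjamini-Hochberg adjustment over all genes tested and calls at adjusted p under 0.05. CPM used TMM library sizes and RPKM the exonic length. The fit was tested on simulated data. DACT1, DACT2, DACT3 and all gene lists were chosen with earlier results of these data known. Named genes were the 3 members, all DVL and VANGL genes, up to 2 largest rises and 2 largest falls per list and comparison with at least 10 mean reads, all neighbours of DACT3, those of DACT1 and DACT2 that passed, and the 3 genes most alike to each member; not all are printed, and 1 neighbour is not reported here. Alternatives were DESeq2 1.42.0 and its size factors, no filter, only the groups compared, a replicate block, a prior count of 2, the threshold of the study (adjusted p under 0.0001 and 2-fold), 10 neighbours on each side, each library left out, and, chosen after seeing the data, removal of GC content and length. Same-numbered libraries deviated together at 24 h only (r = 0.50, 0.17 and 0.50), a pairing read from the data, since no label says that a number marks a shared culture. Libraries of different number reached such values too at 3 h. There r was 0.58 for SP_3H replicate 3 with Control_24H replicate 1, and 0.52 for SP_3H replicate 2 with Control_24H replicate 3. The values at 24 h therefore do not establish a pairing.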

Additional observations from a re-analysis of the deposited data

Results flagged for a closer look

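The log2 difference between treatment times of 1 table, which share their control, passed edgeR's test (adjusted p under 0.05) for these genes beside the DACT family, out of 20.1% of all genes for 24 h against 3 h and 8.10% for 12 days against 3 days. At 24 h against 3 h, ASCL2 (2.65 ± 0.76), NOTUM (2.21 ± 0.30), DKK1 (2.07 ± 0.21), PTK7 (1.90 ± 0.30), KIF25-AS1 (1.59 ± 0.35), KREMEN2 (1.22 ± 0.14) and VANGL2 (0.98 ± 0.25) were higher. ENSG00000224417 inside DACT2 (-1.27 ± 0.30), TNFRSF19 (-1.14 ± 0.20), KIAA0586 (-0.87 ± 0.17), L3HYPDH (-0.55 ± 0.14) and FZD4 (-0.50 ± 0.14) were lower at 24 h.

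At 12 days against 3 days, TLE4 (0.55 ± 0.10), MMP7 (0.36 ± 0.07) and DVL1 (0.26 ± 0.08) were higher. WNT5A (-1.04 ± 0.19), NOTUM (-0.90 ± 0.23), DKK1 (-0.71 ± 0.17), IGFBP4 (-0.70 ± 0.10), PTK7 (-0.57 ± 0.14), FZD8 (-0.53 ± 0.14), SLC1A5 (-0.31 ± 0.08) and PRKACA (-0.29 ± 0.08) were lower at 12 days. DKK1 against control was lower at 3 h and passed upwards at 24 h (0.66), a call lost with 4 of 9 libraries left out (0.46 to 0.70).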

How the results depend on the processing

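With 3 libraries a group and 0 to 13 reads in each DACT3 control, the sizes given for DACT3 rest on counting. A prior count of 2 lowered its log2 fold change to 6.44 at 3 days and 5.61 at 12 days. Removing GC content and length turned DACT2 at 3 days to -0.35, lowered it at 24 h from 0.83 to 0.23, and turned DVL1 at 3 days to -0.25 (adjusted p = 0.00843). Partner calls became 1 at 3 h and 4 at 24 h by DESeq2, 2 and 7 with GC content and length removed (the 7 include falls of DVL1 and DVL2), and 0 at 24 h, 3 days and 12 days at the threshold of the study. At that threshold the other antagonists were 0, 2, 8 and 9 at the 4 times, ligands and receptors 0, 0, 7 and 9, targets 0, 0, 5 and 7, and neighbours 0, 0, 2 and 3. Antagonists at 3 h were 10 by DESeq2, 10 with GC content and length removed and 3 when only the compared groups were fitted, which gave 2 neighbours at 3 h and 7 at 24 h. With 10 neighbours on each side the counts were 12, 21, 33 and 32, from more genes. The cause of the other shifts was not tested.

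Leaving out each library gave DACT3 7.20 to 8.73 at 3 days and 6.36 to 7.89 at 12 days. It gave 0 to 1, 2 to 5 and 2 to 6 partners at 3 h, 24 h and 3 days, 3 to 8 antagonists and 5 to 9 ligands and receptors at 3 h, 2 to 8 and 5 to 11 targets at 3 h and 24 h, and 2 to 6 and 4 to 15 neighbours at 3 h and 24 h. The replicate block, the pairing of same-numbered libraries, gave DACT3 5.33 at 3 h, moved no DACT value by more than the spread between libraries and no list count by over 1.5 times, and changed no call printed at 24 h beyond those of PRKD2, SLC1A5 and ENSG00000269151.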
